A study of Mus musculus with 8 samples.

Results

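The 10 genes followed here mark the blood vessels of the brain: 9 are expressed in brain endothelium (Slc2a1, Flt1, Adgrl4, Pecam1, Cldn5, Kdr, Tek, Cdh5 and Abcb1a) and Pdgfrb is expressed in pericytes, the contractile cells wrapped around capillaries. They were chosen by name, each through its RefSeq identifier in the deposited count table, and where a gene had several identifiers the one with the highest total count stood for it. All 10 were found among the 15285 genes of the table, and all 10 passed the filter on low counts, which kept 15000 genes. Adgrl4 is the current symbol of the gene formerly called Eltd1.

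Ventral midbrain RNA of Ercc1 delta/+ mice, in which 1 allele of the DNA repair gene Ercc1 is mutant, was compared with the same region of wild type mice, with 4 samples of each genotype. Both genotypes had a mixed FVB:C57BL/6J background, both were sequenced as poly(A) RNA in 1 shared lane, and their ages are not given in the labels. Whether the samples of a genotype came from different mice is not stated in the labels, so p-values reflect only sample-to-sample spread, some of which may be technical. Levels are CPM, the usual count normalised to the library total, here with TMM scaling factors.

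The wall of brain capillaries is a sheet of endothelial cells sealed by tight junctions, which forces nutrients through transporters and sends many drugs back into the blood. Endothelial growth and survival are governed by the VEGF receptors and by the angiopoietin receptor Tie2, the product of Tek. Pericytes are recruited and held on the vessel by PDGF-B from endothelium acting on PDGF receptor beta, and this contact is needed for an intact barrier. Glucose enters the brain mainly through the transporter GLUT1, which Slc2a1 encodes.

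The libraries held between 18271978 and 27152167 counts in Ercc1 delta/+ and between 20522061 and 31204701 counts in wild type, and 3 of the 4 lowest totals were Ercc1 delta/+. Dopaminergic neuron markers, which define the dissected region, summed over 10 genes to 222.3 to 462.2 CPM in Ercc1 delta/+ and 326.6 to 496.8 CPM in wild type, and none of the 10 was at 0 counts in any library. Ercc1 itself stood at 11.5 ± 1.17 CPM in Ercc1 delta/+ and at 14.6 ± 0.724 CPM in the wild type (mean ± SD of 4, as for every such value below), without overlap and with a log2 fold change of -0.34 (adjusted p = 0.114 by edgeR). Markers of the choroid plexus, an epithelium in the ventricles that also makes GLUT1, were uneven: 12 genes summed to 401.3, 502.8, 1215 and 104.8 CPM in Ercc1 delta/+ replicates 1 to 4, and to between 105.4 and 189.4 CPM in wild type. Ttr alone held 283, 410.5, 992.8 and 32.5 CPM of these sums in Ercc1 delta/+ replicates 1 to 4, and 18.3 to 111.9 CPM in wild type.

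Promoter sequences of 7 of the 10 genes were available from RefSeq (build GRCm38.p6), each covering 250 bases before to 50 bases after the annotated gene start. Shown here, on the gene's own strand, are those of the 3 genes with the largest estimated differences, Slc2a1, Flt1 and Adgrl4, and that of Kdr, which encodes the other main receptor for VEGF-A. Capitals mark the letters AGGAAG on either strand, a form of the sites bound by ETS factors. Endothelial genes are known to use this transcription factor family. Other forms of these sites were not searched for, so a window without capitals may still hold such sites.
Slc2a1 (chr4:119108495-119108794, plus strand): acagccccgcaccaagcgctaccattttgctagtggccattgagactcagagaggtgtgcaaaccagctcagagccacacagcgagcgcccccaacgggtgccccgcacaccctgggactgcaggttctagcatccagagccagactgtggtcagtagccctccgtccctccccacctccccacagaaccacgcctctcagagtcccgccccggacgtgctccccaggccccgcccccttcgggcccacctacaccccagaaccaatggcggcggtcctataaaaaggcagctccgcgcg
Flt1 (chr5:147725962-147726261, minus strand): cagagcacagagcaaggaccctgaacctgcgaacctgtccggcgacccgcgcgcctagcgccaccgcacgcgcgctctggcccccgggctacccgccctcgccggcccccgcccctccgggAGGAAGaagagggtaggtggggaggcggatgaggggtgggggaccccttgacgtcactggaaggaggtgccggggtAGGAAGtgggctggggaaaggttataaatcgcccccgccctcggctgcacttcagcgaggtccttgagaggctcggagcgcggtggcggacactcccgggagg
Adgrl4 (chr3:151437632-151437931, plus strand): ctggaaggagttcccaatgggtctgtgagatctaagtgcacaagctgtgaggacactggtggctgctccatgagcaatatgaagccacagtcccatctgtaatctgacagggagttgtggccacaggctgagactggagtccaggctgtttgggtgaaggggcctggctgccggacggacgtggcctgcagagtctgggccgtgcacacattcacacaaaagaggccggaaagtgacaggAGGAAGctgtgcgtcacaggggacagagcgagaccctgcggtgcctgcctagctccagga
Kdr (chr5:75978406-75978705, minus strand): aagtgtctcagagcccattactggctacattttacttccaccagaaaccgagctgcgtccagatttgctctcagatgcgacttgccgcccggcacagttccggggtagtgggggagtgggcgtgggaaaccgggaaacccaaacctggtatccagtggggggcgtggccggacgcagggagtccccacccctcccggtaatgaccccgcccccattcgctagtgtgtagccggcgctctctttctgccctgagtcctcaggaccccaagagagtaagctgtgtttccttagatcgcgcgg
The Flt1 window held 2 matches, Adgrl4 held 1, and Slc2a1 and Kdr held 0, while over all 27025 promoters of this length 35.15% held at least 1. The Abcb1a window, not shown, held 2, so that 3 of the 7 windows held AGGAAG. The letters ACANNNTGT, the core of the glucocorticoid response element, occurred in Adgrl4 and Abcb1a, against 6.905% of all promoters. ACAAT, read for SOX factors, and AGATAA, read for GATA factors, occurred in Tek alone of the 7 (31.62% and 11.41% of all promoters). CTTTGA, read for TCF and LEF factors, occurred in Abcb1a alone (16.18% of all promoters). The Slc2a1, Cldn5 and Kdr windows held none of these 5 letter patterns on either strand, and no match overlapped a match of another pattern. The Slc2a1 window had 65.33% G and C and 18 CpG, Flt1 70.67% and 29, and Kdr 60.67% and 19, where the median promoter had 52.67% and 7.

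Per kilobase of transcript, so that genes can be set side by side, Slc2a1 stood highest of the 10 with 55.8 ± 5.76 CPM per kilobase in Ercc1 delta/+ and 37.5 ± 2.81 CPM per kilobase in wild type. Cldn5 was next, with 27.6 ± 9.67 in Ercc1 delta/+ and 27.9 ± 2.09 in wild type, followed by Flt1, with 12.3 ± 1.495 CPM per kilobase in Ercc1 delta/+ and 9.14 ± 0.239 in wild type. In both genotypes the libraries of Slc2a1, Cldn5 and Flt1 lay apart from one another. Below them in wild type came Abcb1a (8.44), Pecam1 (7.49), Adgrl4 (5.10), Pdgfrb (4.93), Cdh5 (4.89), Tek (3.56) and Kdr (3.02 CPM per kilobase). Of the neighbours in that wild type order from Flt1 down, Pecam1 and Adgrl4 alone did not overlap, so the other places in the order are not resolved beyond the spread of the libraries.

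The comparison of genotypes asked whether the vessel genes of the midbrain differ when 1 Ercc1 allele is mutant. Slc2a1, Adgrl4 and Flt1 had the largest estimates, all with higher levels in Ercc1 delta/+, and the other 7 genes had estimates between -0.11 and 0.23 on the log2 scale. None of the 10 reached the 0.05 threshold on the adjusted p from edgeR's quasi-likelihood test (0 of 10, where 0.0467% of all 15000 genes did, 0.0133% higher and 0.0333% lower), and Slc2a1 had an adjusted p of 0.0504. At an unadjusted p of 0.05, 3 of 10 were higher and 0 lower, where 9.03% of all genes were higher and 9.57% lower. DESeq2 called those 3 (background 3.59% higher and 3.82% lower), the edgeR exact test called the same 3 (1.61% and 2.05%), and limma-voom called Slc2a1 alone (0.12% and 0.227%). On simulated counts, false calls made up 17.8% of calls by DESeq2, 16.4% by the exact test, 7.19% by quasi-likelihood and 6.67% by limma-voom. Of simulated 1.5-fold changes, these tools recovered 68%, 67%, 49% and 47%, in the same order. The simulation was a single run of 15000 genes, of which 100 were changed 2-fold and 100 were changed 1.5-fold. The share of changed genes in the real data is not known, so these shares of false calls may not carry over to it. Slc2a1 was also the 1 gene of the 10 called with RLE scaling (0.08% of all genes higher), upper quartile scaling (0.147%), a stricter filter (0.106%) or without Ercc1 delta/+ replicate 2 (0.49%). The median log2 fold change of the 10 was 0.18 and 8 were positive, against a median of -0.0027 and 49.5% positive over all genes tested. The 10 were chosen with earlier results of these data known, so these counts are no independent support. The median of the 10 depended on single libraries: leaving out Ercc1 delta/+ replicate 1 gave 0.11, leaving out wild type replicate 1 gave 0.08, and a term for the shallowest libraries gave 0.12. In bulk tissue, more or fewer vessel cells and more or less RNA per cell cannot be told apart.

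**Figure D1:**
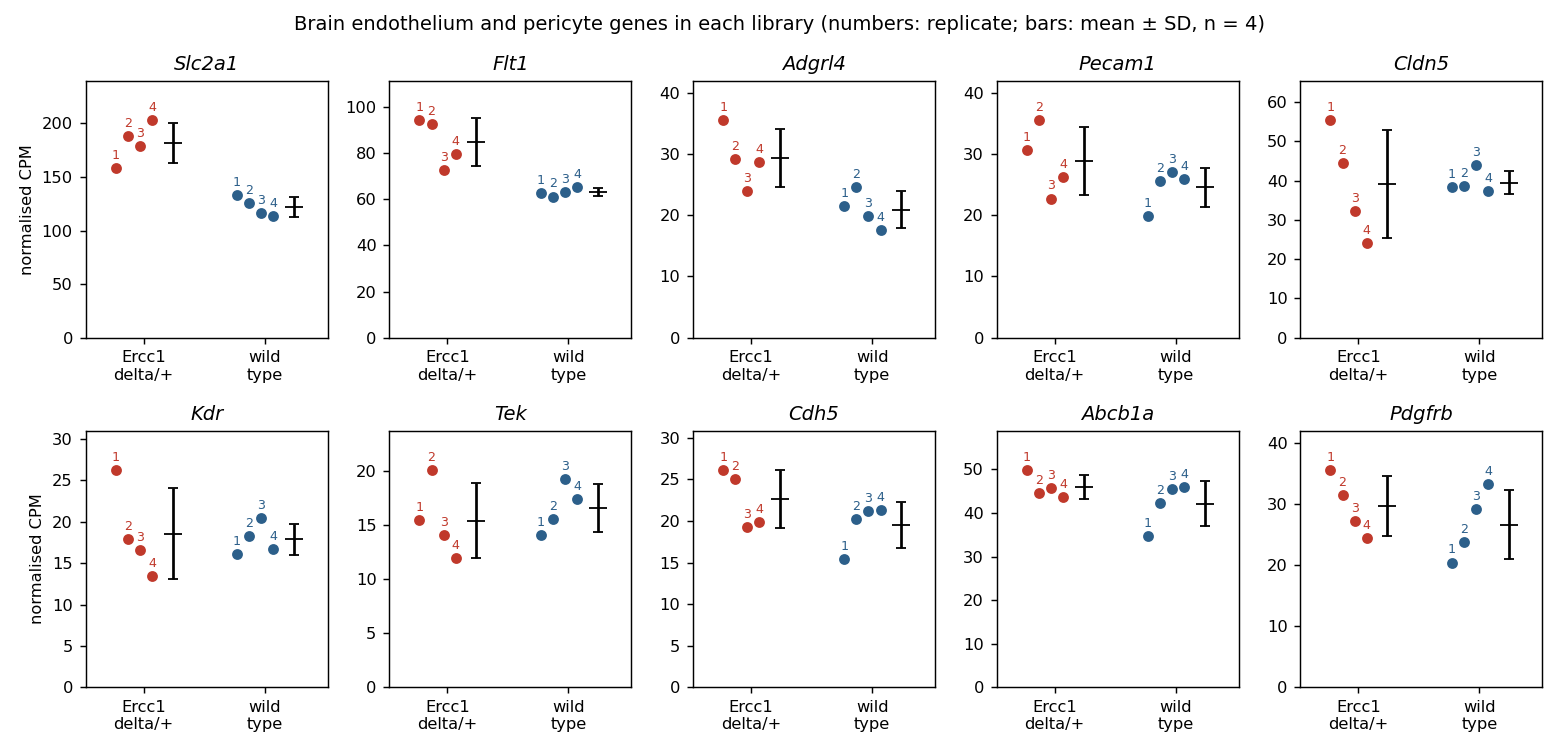
Normalised CPM of each of the 10 genes in each library, with Ercc1 delta/+ left of wild type; numbers are replicates, and bars are the mean ± SD of 4 libraries. All 4 Ercc1 delta/+ libraries lie above all 4 wild type libraries for Slc2a1 and Flt1, and the groups overlap for the other 8 genes.

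Among the transporters, Slc2a1 held 158.0, 187.9, 179.0 and 203.0 CPM in Ercc1 delta/+ replicates 1 to 4, against 133.5, 125.4, 116.5 and 113.2 CPM in wild type replicates 1 to 4. Every Ercc1 delta/+ library lay above every wild type library, as did 5.18% of all genes tested. Its mean was 182 ± 18.8 CPM in Ercc1 delta/+ and 122 ± 9.14 CPM in wild type, a log2 fold change of 0.58 (SE 0.09, 95% interval 0.37 to 0.78), or 1.49-fold. A log2 fold change at least as high was found for 2.78% of all genes, and 29 genes, Slc2a1 included, had a p at or below its own (0.193%). In the authors' deposited table, the log2 fold change of Slc2a1 is 0.576 with an adjusted p of 0.00238. Of all rows there, 1.861% have an adjusted p below 0.05. The estimate kept its sign in all 21 alternative settings, from 0.52 without Ercc1 delta/+ replicate 4 to 0.64 without Ercc1 delta/+ replicate 1. The adjusted p was below the threshold in 7 of the 21 and ranged from 3.19e-06 with DESeq2 to 0.176 with the setting that corrects for transcript length and GC (the length and GC offset).

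Slc2a1 is also expressed in choroid plexus epithelium and in astrocytes, so these markers were set beside it. Ercc1 delta/+ replicates 1 to 3 lay above every wild type library both in Slc2a1 (158.0, 187.9 and 179.0 CPM) and in the choroid plexus sum. Their sums were 401.3, 502.8 and 1215 CPM, against at most 189.4 CPM in wild type. The highest Slc2a1 level, 203.0 CPM in Ercc1 delta/+ replicate 4, occurred in the library with the lowest choroid plexus sum. That sum, 104.8 CPM, was close to the lowest wild type sum, 105.4 CPM in replicate 4. In that mutant library Kl, Cldn2 and Kcnj13 lay above every wild type library, and Folr1, Kcne2, Slc4a5, Otx2 and Sostdc1 below. Aqp1, Clic6, Prlr and Ttr lay within the wild type range. With the mean of the choroid plexus genes as a covariate, a setting chosen after seeing the data, the log2 fold change of Slc2a1 was 0.63 (adjusted p = 0.172, edgeR quasi-likelihood). Astrocyte markers summed over 10 genes to 3707 to 5605 CPM in Ercc1 delta/+ and 3656 to 5610 CPM in wild type, so the ranges nearly coincided.

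Abcb1a encodes P-glycoprotein, the pump that returns many drugs to the blood. Its levels were 49.9, 44.6, 45.7 and 43.6 CPM in Ercc1 delta/+ replicates 1 to 4 and 34.8, 42.3, 45.5 and 46.0 CPM in wild type replicates 1 to 4. Wild type replicate 1 stood lowest and the other 7 libraries lay close together, with the groups overlapping. Its log2 fold change was 0.12 (SE 0.10, 95% interval -0.09 to 0.34, adjusted p = 0.518 by edgeR), and without wild type replicate 1 it was 0.04. Abcb1b, its close paralogue, had a log2 fold change of 0.09 (SE 0.12) with 13.0 ± 1.43 CPM in Ercc1 delta/+ and 12.3 ± 1.501 CPM in wild type; how reads shared by the pair were counted is not given in the sources used here.

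Cldn5 encodes claudin-5, the main tight junction protein of brain capillaries. Its levels were 55.4, 44.4, 32.3 and 24.2 CPM in Ercc1 delta/+ replicates 1 to 4, against 38.3, 38.5, 43.9 and 37.3 CPM in wild type replicates 1 to 4. The mutant libraries lay on both sides of the wild type range, with replicates 1 and 2 above it and 3 and 4 below it, and their means were alike, 39.1 ± 13.7 CPM in Ercc1 delta/+ and 39.5 ± 2.95 CPM in wild type. The coefficient of variation was 35.1% in Ercc1 delta/+ and 7.48% in wild type. The log2 fold change of -0.02 (SE 0.22) had a 95% interval from -0.51 to 0.47, which a difference of the size estimated for Flt1 would fit inside, and its sign was not stable.

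Of the growth factor receptors, Flt1 encodes VEGF receptor 1, which binds VEGF-A tightly and limits how much reaches the other receptor. It held 94.2, 92.3, 72.7 and 79.6 CPM in Ercc1 delta/+ replicates 1 to 4 and 62.6, 61.1, 63.2 and 65.1 CPM in wild type replicates 1 to 4. All 4 mutant libraries lay above a narrow wild type range. The log2 fold change was 0.43 (SE 0.09, 95% interval 0.23 to 0.62), or 1.34-fold, with an adjusted p of 0.0664 by edgeR, and the authors' deposited table gives 0.396 with an adjusted p of 0.0453. With the length and GC offset it was 0.30 (adjusted p = 0.258), and Flt1 has the longest transcript of the 10, 6895 bases.

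Kdr encodes VEGF receptor 2, through which VEGF-A drives endothelial growth. Its levels were 26.2, 17.9, 16.6 and 13.4 CPM in Ercc1 delta/+ replicates 1 to 4, against 16.1, 18.2, 20.4 and 16.7 CPM in wild type replicates 1 to 4. Ercc1 delta/+ replicate 1 was the highest of the 8 libraries and replicate 4 the lowest, so the mutant libraries spanned the wild type range. For Kdr the log2 fold change was 0.05 (SE 0.19, 95% interval -0.36 to 0.47, adjusted p = 0.906) and -0.16 without Ercc1 delta/+ replicate 1. The ratio of Flt1 to Kdr counts within a library was 3.59, 5.16, 4.38 and 5.92 in Ercc1 delta/+ and 3.88, 3.35, 3.10 and 3.90 in wild type, replicates 1 to 4, and these ranges overlapped through Ercc1 delta/+ replicate 1. Whether the 2 receptors differ in their response was not tested.

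Tek encodes Tie2, the receptor of the angiopoietins, which keeps vessels quiescent. It held 15.5, 20.1, 14.1 and 11.98 CPM in Ercc1 delta/+ replicates 1 to 4 and 14.1, 15.6, 19.2 and 17.4 CPM in wild type replicates 1 to 4. The highest and the lowest library were both mutant. A log2 fold change of -0.11 (SE 0.16, 95% interval -0.47 to 0.26, adjusted p = 0.762) was negative in all 21 other settings, from -0.26 to -0.0042.

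Adgrl4 encodes an adhesion G protein-coupled receptor of endothelium that takes part in vessel sprouting. Its levels were 35.5, 29.2, 23.9 and 28.8 CPM in Ercc1 delta/+ replicates 1 to 4, against 21.5, 24.7, 19.9 and 17.6 CPM in wild type replicates 1 to 4. In 3 of 4 mutant libraries it exceeded every wild type library, and mutant replicate 3 lay just under wild type replicate 2. The log2 fold change was 0.49 (SE 0.14, 95% interval 0.18 to 0.80, adjusted p = 0.112 by edgeR), or 1.40-fold, with an adjusted p of 0.0236 by DESeq2 and 0.0705 in the authors' deposited table. Once the 4 shallowest libraries had a term of their own (the depth term), it was 0.31.

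The adhesion molecules at endothelial contacts had intermediate estimates. Pecam1, which encodes CD31, held 30.7, 35.5, 22.7 and 26.3 CPM in Ercc1 delta/+ replicates 1 to 4 and 19.9, 25.6, 27.0 and 25.9 CPM in wild type replicates 1 to 4. Cdh5, which encodes VE-cadherin of the adherens junction, held 26.2, 25.1, 19.3 and 19.9 CPM in Ercc1 delta/+ and 15.4, 20.2, 21.3 and 21.3 CPM in wild type, again replicates 1 to 4. Both genes had mutant replicates 1 and 2 at the top, wild type replicate 1 at the bottom and overlapping groups. The log2 fold changes were 0.23 (SE 0.15, 95% interval -0.11 to 0.56, adjusted p = 0.445) for Pecam1 and 0.21 (SE 0.14, 95% interval -0.10 to 0.52, adjusted p = 0.449) for Cdh5. Without wild type replicate 1 they were 0.14 and 0.11, and with the depth term 0.08 and 0.11. Pecam1 had a second RefSeq row with 4997 counts in all, against 5057 for the row used, and the rows hold largely the same reads.

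Pdgfrb, the pericyte receptor for PDGF-B, held 35.6, 31.4, 27.3 and 24.4 CPM in Ercc1 delta/+ replicates 1 to 4, against 20.5, 23.7, 29.2 and 33.3 CPM in wild type replicates 1 to 4. The 2 groups covered nearly the same range. Its log2 fold change was 0.15 (SE 0.17, 95% interval -0.22 to 0.53, adjusted p = 0.658), 0.03 with the length and GC offset, 0.04 without wild type replicate 1, 0.05 without Ercc1 delta/+ replicate 1 and 0.28 without wild type replicate 4. Its second row differed from the first by 1 count in 5454.

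**Figure D2:**
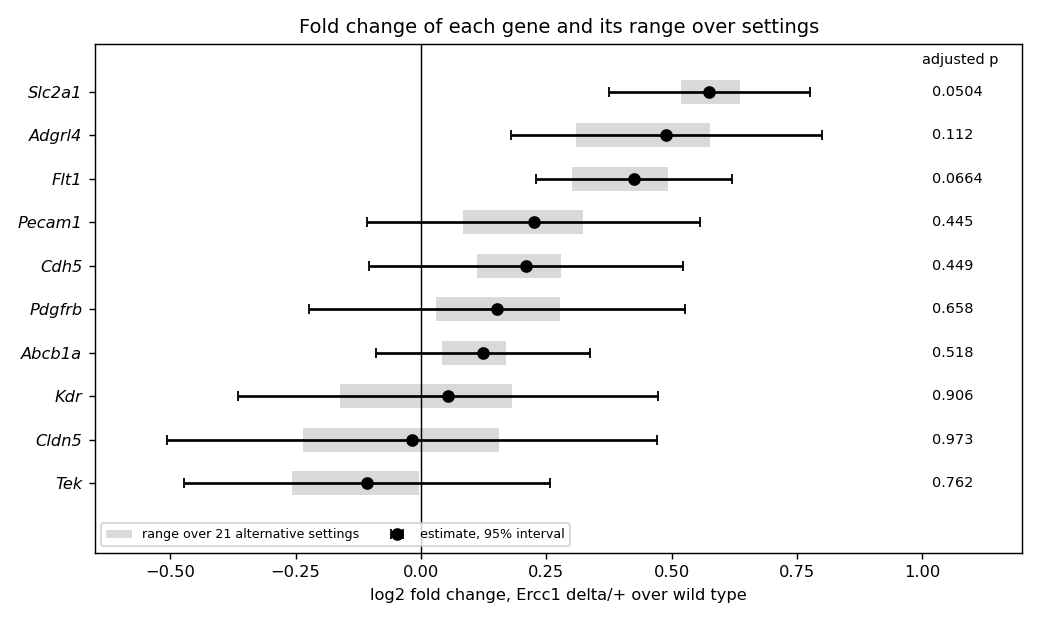
Log2 fold change of each gene, Ercc1 delta/+ over wild type, with its 95% interval (points and whiskers), the range over 21 alternative settings (grey) and the adjusted p of the edgeR quasi-likelihood test. The intervals of Slc2a1, Adgrl4 and Flt1 exclude 0, those of the other 7 include it, and only Cldn5 and Kdr have grey ranges that cross 0.

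Within a genotype, the 10 genes did not all vary together. The deviations of log2 CPM from the mean of the own group, over 8 libraries, correlated positively in 33 of 45 pairs of genes, with a median Pearson r of 0.56. Each of the 8 points is a library with its own depth and dissection, which all genes share, and no p is given. Cldn5 and Kdr were the closest pair (r = 0.93), followed by Pecam1 and Cdh5 (0.91) and by Abcb1a and Pdgfrb (0.87). Against the mean of the other 9 genes, Cdh5 had the highest r (0.91) and Adgrl4 a low one (0.31). Slc2a1 ran opposite to the rest, with an r of -0.75, and was negative against each of the 9 other genes, from -0.05 with Adgrl4 to -0.88 with Pdgfrb.

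The library pattern shows this reversal in Ercc1 delta/+ replicate 4, where Slc2a1 was at its highest and Cldn5, Kdr and Tek were at their lowest of all 8 libraries. Without Slc2a1, the 9 remaining genes summed to 369.2, 340.7, 274.7 and 272.2 CPM in Ercc1 delta/+ replicates 1 to 4 and to 243.3, 270.0, 289.6 and 280.6 CPM in wild type replicates 1 to 4. Mutant replicates 1 and 2 thus exceeded every wild type library in this sum, and mutant replicates 3 and 4 lay inside the wild type range.

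**Figure D3:**
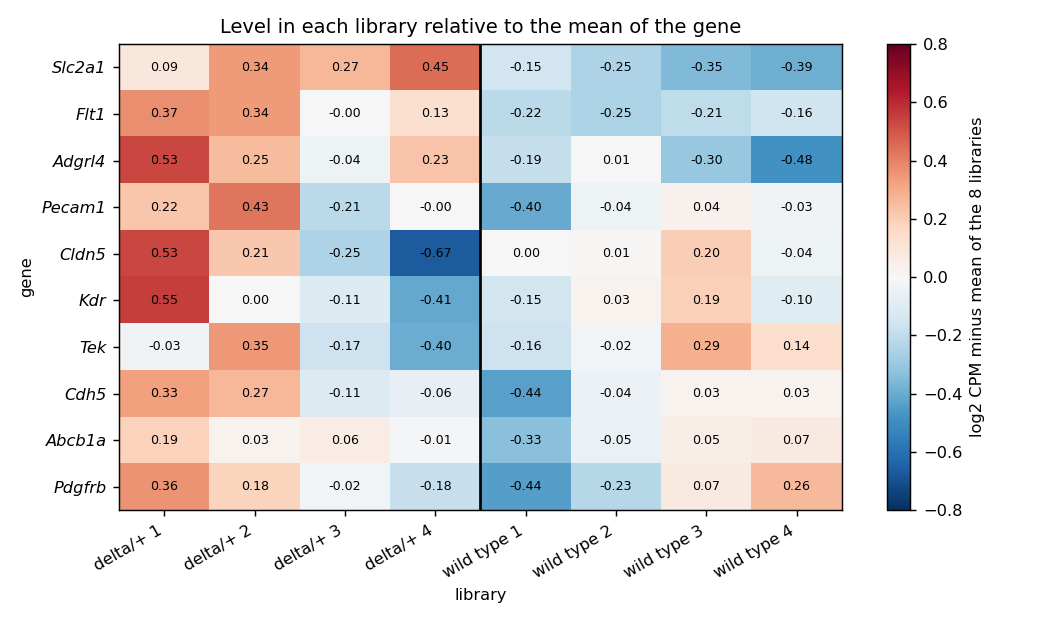
Log2 CPM of each gene in each library minus the mean of the gene over the 8 libraries, Ercc1 delta/+ at left and wild type at right of the line. In Ercc1 delta/+ replicate 4, Slc2a1 lies at 0.45 while Cldn5, Kdr and Tek lie at -0.67, -0.41 and -0.40.

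The list whose within-genotype deviations lay closest to those of Slc2a1 was that of 18 glucocorticoid-induced genes (r = 0.96 over 8 libraries, a description with no p), and for Kdr, Pdgfrb and Abcb1a the same r was -0.82, -0.82 and -0.77. That list summed to 885.9, 1132, 1019 and 1406 CPM in Ercc1 delta/+ replicates 1 to 4 and to 886.3, 847.0, 746.1 and 704.8 CPM in wild type replicates 1 to 4, so its rank order of libraries within each genotype was that of Slc2a1. Its median log2 fold change was 0.56, against -0.0027 over all genes tested, with 16 of 18 positive (49.5% of all genes). Zbtb16 alone of the 18 passed the threshold, where 0.0133% of all genes passed it as higher. The list was included as a list that moves in these data, so these counts are no independent support. With the choroid plexus list the r of Slc2a1 was -0.32. Beyond the fit with the choroid plexus covariate given above, the part of either list in the Slc2a1 difference was not tested.

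**Figure D4:**
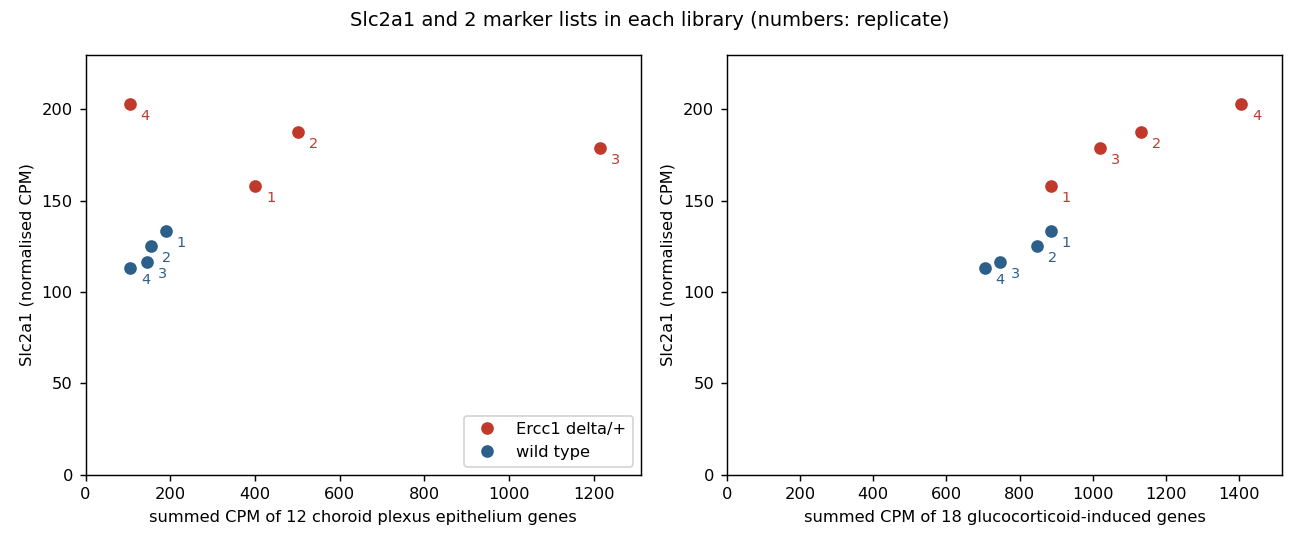
Slc2a1 (normalised CPM) against the summed CPM of 12 choroid plexus epithelium genes at left and of 18 glucocorticoid-induced genes at right, 1 point per library, with replicate numbers. Ercc1 delta/+ replicates 1 to 3 lie above every wild type library in both Slc2a1 and the choroid plexus sum. Ercc1 delta/+ replicate 4 has the highest Slc2a1 (203.0 CPM), the lowest choroid plexus sum (104.8 CPM) and the highest sum of glucocorticoid-induced genes (1406 CPM).

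Outside the 10, the genes whose deviations were most like the mean of the 10 included Slc38a5, an amino acid transporter gene of brain endothelium (r = 0.97 over 8 libraries), and Rgs5, a pericyte marker (r = 0.96). The other 8 of the nearest 10, from 4930523C07Rik (0.97) to Tmem94 (0.94), were on none of the lists used here: Zfp65, Ptrh2, Mfsd8, Slc20a2, Golim4 and Afap1l1 lay between. An r above 0.8 was reached by 197 of 14192 genes of at least 1 CPM, a count in which the 10 themselves are included. The median r was 0.52 over 30 further endothelial identity genes, 0.47 over 30 barrier genes, 0.23 over 20 pericyte genes and 0.02 over all genes. Some lists of other cell types reached like values, with a median r of 0.45 for fibroblast and meningeal genes and 0.39 for astrocyte genes. It was 0.32 for microglia, 0.26 for smooth muscle, 0.24 for neuron and 0.22 for dopaminergic neuron genes. Lower values were found for erythrocyte (0.14), choroid plexus (0.09) and oligodendrocyte genes (-0.06). The lowest median, -0.52, was that of the 18 glucocorticoid-induced genes.

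Vessel-related genes beyond the 10 were taken from 9 lists, 153 genes in all. Some of them, such as Ctnnb1 and Lrp1, are not particular to vessels, and bulk tissue does not show which cells their RNA came from. By the edgeR quasi-likelihood test 0 of the 153 passed over all genes tested. At an unadjusted p of 0.05, 43 were higher and 6 lower, where 9.03% of all genes were higher and 9.57% lower. DESeq2 called 22 higher and 4 lower (3.59% and 3.82% of all genes), the edgeR exact test 15 and 2 (1.61% and 2.05%), and limma-voom 0 and 0 (0.12% and 0.227%). Groups did not overlap for 28 higher and 4 lower genes of the 153, where 5.18% and 6.86% of all genes did not. In the plot of fold changes by list, the medians of all 9 lists lay above the median of all genes. The lists were chosen with earlier results of these data known, so these counts and medians are no independent support.

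Among 30 endothelial identity genes, 24 were positive, and the median log2 fold change was 0.23. At an unadjusted p of 0.05, 9 were higher and 0 lower (9.03% and 9.57% of all genes). The median was 0.15 without Ercc1 delta/+ replicate 2 and 0.15 with the choroid plexus covariate. Sox17, a transcription factor gene of arterial endothelium, averaged 7.71 ± 1.26 CPM in Ercc1 delta/+ and 5.01 ± 0.270 CPM in wild type, a log2 fold change of 0.62 (adjusted p = 0.0723 by edgeR). Nos3, the nitric oxide synthase gene of endothelium, had 0.43 (adjusted p = 0.0912), Robo4, a guidance receptor gene that steadies vessels, 0.41 (adjusted p = 0.125), and Mmrn2, an extracellular matrix gene of endothelium, 0.34 (adjusted p = 0.147). In each of these 4, the genes of smallest p in the list, the groups did not overlap. Over the whole list they did not overlap for 8 higher and 0 lower genes of 30, where 5.18% and 6.86% of all genes did not. On the other side were 6 genes of the 30, of which 2 are named here after their values were seen. Clec14a had the lowest estimate of the list, -0.51 (adjusted p = 0.281 by edgeR), and Itm2a had -0.24 (adjusted p = 0.277), both with overlapping groups. The list summed to 559.9 to 679.0 CPM in Ercc1 delta/+ and 477.1 to 555.5 CPM in wild type.

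Barrier junction and transporter genes were more divided, with 19 of 30 positive and a median of 0.11, which was 0.06 without Ercc1 delta/+ replicate 2. The pump gene Abcc4 averaged 19.5 ± 2.02 CPM in Ercc1 delta/+ and 13.4 ± 1.13 CPM in wild type (log2 fold change 0.54, adjusted p = 0.0602 by edgeR). The amino acid transporter gene Slc7a5 had 0.30 (adjusted p = 0.0882) and the junction scaffold gene Tjp1 0.24 (adjusted p = 0.129). Slc16a1, the gene of a monocarboxylate transporter of the barrier, was on the other side, with 51.3 ± 3.23 CPM in Ercc1 delta/+ and 62.8 ± 6.26 CPM in wild type and a log2 fold change of -0.29 (adjusted p = 0.116). Ocln, the gene of the junction protein occludin, named for its place beside Cldn5 and not by the rule for naming genes, had 0.09 (SE 0.12).

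The partners of the VEGF and angiopoietin receptors had estimates on both sides of 0, from -0.33 for Pgf to 0.66 for Plxnd1, with 7 of 12 positive and a median of 0.10. That median was 0.04, 0.05 and 0.06 without Ercc1 delta/+ replicate 1, Ercc1 delta/+ replicate 2 and wild type replicate 2. Plxnd1, a semaphorin receptor gene named here as the highest estimate after its value was seen, varied widely, with 68.4 ± 32.8 CPM in Ercc1 delta/+ and 43.5 ± 27.1 CPM in wild type (SE 0.42, adjusted p = 0.434). Vegfa, the ligand of Flt1 and Kdr, averaged 84.3 ± 1.46 CPM in Ercc1 delta/+ and 77.0 ± 8.18 CPM in wild type (log2 fold change 0.13, SE 0.08, adjusted p = 0.408). Pgf, a ligand of Flt1 alone of the pair, had -0.33 (SE 0.19, adjusted p = 0.375). Flt4, the gene of a further VEGF receptor, had 0.51 (adjusted p = 0.0912) and the semaphorin gene Sema3g 0.57 (adjusted p = 0.0640), and for both the groups did not overlap. The angiopoietin genes Angpt1 and Angpt2, ligands of Tie2 named for that role after their values were seen, had -0.13 (SE 0.13) and -0.12 (SE 0.21).

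For the PDGF pathway, Pdgfb, the endothelial ligand of Pdgfrb, averaged 24.0 ± 3.51 CPM in Ercc1 delta/+ and 16.9 ± 3.13 CPM in wild type (log2 fold change 0.51, SE 0.15, adjusted p = 0.116 by edgeR), and its groups did not overlap. The other ligand genes Pdgfd (0.37), Pdgfc (0.12) and Pdgfa (-0.03) and the receptor gene Pdgfra (0.05) had adjusted p-values of 0.497, 0.653, 0.887 and 0.813. The median of the 5 genes, 0.12, was 0.03 without Ercc1 delta/+ replicate 1, and 0.19 or 0.07 with wild type replicate 2 or 3 left out. Of 20 pericyte identity genes 14 were positive, with a median of 0.31, and leaving out wild type replicate 1 or 2 gave 0.12 or 0.20. Their sums overlapped, 396.1 to 474.4 CPM in Ercc1 delta/+ and 333.3 to 506.1 CPM in wild type. Zic1 alone held 51.2 to 157.6 CPM of these sums in Ercc1 delta/+ and 96.5 to 167 CPM in wild type. Rgs5 had 0.31 (adjusted p = 0.205), the potassium channel subunit gene Abcc9 0.46 (adjusted p = 0.212) and the aminopeptidase gene Anpep 0.70 (adjusted p = 0.197). Heyl, a Notch target gene of mural cells, had -0.76 (adjusted p = 0.0867) with 10.04 ± 1.62 CPM in Ercc1 delta/+ and 17.0 ± 3.93 CPM in wild type, and its groups did not overlap.

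Signals that pattern vessels lay mostly on the positive side. Of 18 Notch, ephrin and TGF-beta genes 17 were positive (median 0.19, and 0.11 with the depth term), led by Notch4, the endothelial Notch receptor gene, with 14.8 ± 1.57 CPM in Ercc1 delta/+ and 8.98 ± 1.21 CPM in wild type (log2 fold change 0.72, SE 0.12, adjusted p = 0.0523). Bmpr2, a BMP receptor gene, had 0.39 (adjusted p = 0.0785) and its target gene Id1 0.53 (adjusted p = 0.132). Of 16 genes of the Wnt signal that builds the barrier 10 were positive (median 0.14), and 7 were higher and 2 lower at an unadjusted p of 0.05 (9.03% and 9.57% of all genes). That median was 0.06 without Ercc1 delta/+ replicate 1, 0.09 or 0.21 with wild type replicate 1 or 2 left out, and 0.23 with the depth term. The co-receptor genes Lrp6 (0.34, adjusted p = 0.0523), Lrp5 (0.48, adjusted p = 0.0602) and Adgra2 (0.55, adjusted p = 0.0612) had no overlap between groups, and the ligand gene Ndp lay lower without overlap (-0.49, adjusted p = 0.0640).

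Of 13 basement membrane genes 12 were positive (median 0.34, and 0.20 with the length and GC offset), among them the laminin chain genes Lamc1 (0.45, adjusted p = 0.0523) and Lamb1 (0.34, adjusted p = 0.0664), while Sparc, a matrix glycoprotein gene, had -0.34 (adjusted p = 0.143). Of the 10 endothelial activation genes tested, 9 were positive, and their median of 0.46 was 0.27 without Ercc1 delta/+ replicate 4, 0.28 with the depth term and 0.81 with the choroid plexus covariate. Icam1, the gene of a leukocyte adhesion molecule, had 1.082 (adjusted p = 0.120) and Osmr, a cytokine receptor gene, 0.96 (adjusted p = 0.0602), both without overlap, at means in Ercc1 delta/+ of 5.46 ± 2.46 and 7.69 ± 1.70 CPM against 2.57 ± 0.441 and 3.94 ± 0.408 CPM in wild type. The selectin genes Sele and Selp had no row among the genes used here.

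**Figure D5:**
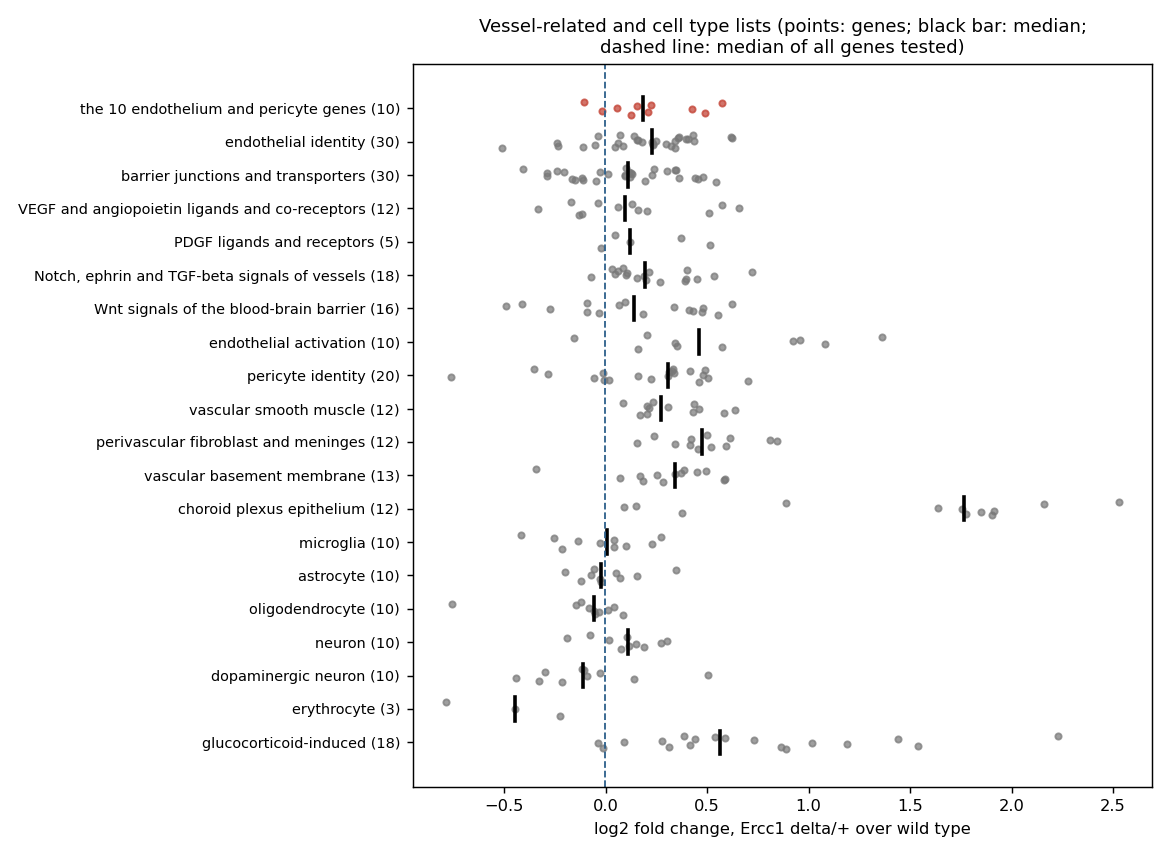
Log2 fold change, Ercc1 delta/+ over wild type, of each tested gene (points) in the 10 endothelium and pericyte genes, 9 vessel-related lists, 9 cell type lists and the glucocorticoid-induced list, with the number of genes in parentheses, the median of each list (black bar) and the median of all genes tested (dashed line). The median is 0.18 for the 10 genes, 1.77 for choroid plexus and between -0.11 and 0.11 for microglia, astrocytes, oligodendrocytes, neurons and dopaminergic neurons.

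Markers of neighbouring cell types differed in how they moved with genotype. The 12 fibroblast and meningeal genes were all positive (median 0.48) and summed to 381.4 to 494.6 CPM in Ercc1 delta/+ and 147.6 to 472.4 CPM in wild type, where replicate 1 was lowest; leaving out wild type replicate 1 or 4 gave a median of 0.28 or 0.75. The 12 vascular smooth muscle genes were also all positive (median 0.27, and 0.43 without wild type replicate 4), with sums of 276.7 to 290.0 CPM in Ercc1 delta/+ and 215.9 to 282.0 CPM in wild type. Microglia genes summed to 389.7 to 451.6 CPM in Ercc1 delta/+ and 338.7 to 487.0 CPM in wild type (5 of 10 positive, median 0.01). The choroid plexus median, 1.77, was 1.01 without Ercc1 delta/+ replicate 3, and the dopaminergic median, -0.11, ran from -0.42 (Ercc1 delta/+ replicate 2 left out) to 0.03 (Ercc1 delta/+ replicate 3 left out). None of these markers was at 0 counts in any library. Beyond the choroid plexus covariate, their part in the results on vessel genes was not tested.

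Red blood cell genes had the opposite sign in all 3 of 9 that were tested. The globin genes Hbb-b2 and Hba-a1 averaged 62.0 ± 12.2 and 125 ± 23.0 CPM in Ercc1 delta/+, against 107 ± 15.0 and 171 ± 20.02 CPM in wild type. Their log2 fold changes were -0.79 (adjusted p = 0.0602 by edgeR) and -0.45 (adjusted p = 0.137), and Alas2, the gene of the erythroid haem synthesis enzyme, had -0.23 (adjusted p = 0.517). Globin genes have near-identical copies whose reads could have been split in counting, so these values are uncertain.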

How the data were processed

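Messenger RNA of the ventral midbrain was sequenced in 4 Ercc1 delta/+ and 4 wild type samples; only RNA with an integrity number above 8 was used, per the labels' protocols. The authors deposited raw counts per coding RefSeq transcript, 19931 rows with a lowest total of 31 counts, and the submitters' processing notes name TopHat 1.3.1, edgeR and the build mm9. How strand and shared reads were handled in counting is not given in the sources used here. Exons of Slc2a1 and Abcb1a overlap opposite-strand annotated genes by 105 and 452 bases (GENCODE M21), and such reads cannot be told apart. A log2 fold change, a p-value and an adjusted p per row were deposited by the authors beside the counts.

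Symbols came from RefSeq (GRCm38.p6) and GENCODE M21, used for names, transcript length, GC content and promoters; 19600 rows matched. The row of highest total stood for each gene, and 87 genes whose counts equalled those of another gene in all libraries were merged. The test was edgeR 4.0.16 quasi-likelihood (R 4.3.3, TMM, filterByExpr, two-sided, Benjamini-Hochberg over 15000 genes, threshold 0.05), tested on simulated data; intervals use its t quantiles. Alternatives used DESeq2 1.42.0, limma-voom (limma 3.58.1), the exact test, other scaling and filters, left-out libraries, a replicate block, a depth term, a length and GC offset (lowess span 0.3) and summed rows. Counts of replicates differed beyond sampling noise (lowest chi-square over degrees of freedom 11.9). At these depths 3 counts correspond to 0.096 to 0.164 CPM, for counting error only. Named genes were the 10, up to 4 of smallest p per list and the 10 of closest deviations; not all are described. The members and lists were chosen with earlier results of these data known.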

Additional observations from a re-analysis of the deposited data

Results flagged for a closer look

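In 8 of 192 groups of 4 libraries examined, over the genes taken for naming, 1 library stood apart from the other 3 by Dixon's criterion. Chance meets it in about 1 of 20 groups, so the 8 are no more than chance would give. None was one of the 10 endothelium and pericyte genes. Lamc1, the laminin chain gene, was low in Ercc1 delta/+ replicate 3, at 54.5 CPM against 57.6 to 57.8 CPM in the other 3. Fkbp5, of the glucocorticoid-induced list, was high in Ercc1 delta/+ replicate 4, at 78.5 CPM against 56.9 to 60.5 CPM, the library in which Slc2a1 was highest. S100b, an astrocyte marker, was high in Ercc1 delta/+ replicate 2, at 220.3 CPM against 140.0 to 149.5 CPM. Ptgs2, of the endothelial activation list, was high in wild type replicate 2, at 7.83 CPM against 1.40 to 1.62 CPM. Wild type replicate 4 was low for Aldoc, at 821.7 CPM against 993.7 to 1021 CPM, and for Syt1, at 828.1 CPM against 935.0 to 956.0 CPM. Ddc was high in wild type replicate 3, at 82.5 CPM against 48.2 to 53.9 CPM. The unnamed transcript 4930523C07Rik was low in wild type replicate 1, at 2.08 CPM against 2.52 to 2.58 CPM.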

How the results depend on the processing

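Over 21 alternative settings, the number of the 10 genes with a positive log2 fold change, 8 as reported, ran from 7 to 9, and the median log2 fold change of the members, 0.18, ran from 0.0776 without wild type replicate 1 to 0.252 without wild type replicate 4. The number of the 10 genes past the threshold, 0 as reported, was 1 with RLE scaling, upper quartile scaling, the stricter filter or limma-voom and 3 with DESeq2 or the edgeR exact test; leaving out single libraries gave 0 to 1, and the 1 was Slc2a1 without Ercc1 delta/+ replicate 2 (adjusted p = 0.046). The number of genes called over all genes, 7 as reported, was 33 with RLE scaling, 86 with upper quartile scaling, 50 with the stricter filter, 1025 with DESeq2, 549 with the exact test, 52 with limma-voom, 1 with the depth term, 1 with the length and GC offset and 0 with the choroid plexus covariate, which was chosen after seeing the data. Leaving out single libraries gave 0 (Ercc1 delta/+ replicate 4) to 320 (Ercc1 delta/+ replicate 2) genes. The causes were not tested.

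The log2 fold change of Cldn5, -0.02, was 0.0153 with the length and GC offset and ran from -0.235 (without Ercc1 delta/+ replicate 1) to 0.155 (without Ercc1 delta/+ replicate 4) over single libraries left out, and was positive also without Ercc1 delta/+ replicate 3 (0.064) and wild type replicate 3 (0.0354). The log2 fold change of Kdr, 0.05, was -0.0107 with the depth term, -0.0404 with the length and GC offset, -0.0825 with the choroid plexus covariate and ran from -0.161 (without Ercc1 delta/+ replicate 1) to 0.181 (without Ercc1 delta/+ replicate 4) over single libraries left out. Whether replicate numbers pair the samples is not given in the labels, and the correlations of deviations cannot settle it. Same-numbered samples had -0.30, 0.17, -0.12 and 0.29, and differently numbered samples ran from -0.57 to 0.55. With the replicate number as a block, 0 genes passed, none of the 10 among them, and Slc2a1 had an adjusted p of 0.120.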
